A study of Homo sapiens with 6 samples.

Results

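The genes described here encode proteins of the BCL2 family, which decide at the outer membrane of mitochondria whether a cell survives. The 10 members were taken by name and are the survival genes BCL2, MCL1, BCL2L1 and BCL2A1, the effectors BAX and BAK1, and the BH3-only genes BID, BCL2L11, BBC3 and PMAIP1. Every probe set whose annotation names 1 of these genes and no other was included, which gave 30 of the 54613 probe sets tested and 9 of the 10 genes. BBC3, which encodes PUMA, has 1 probe set on the array that also names other genes, so no value is given for it. The RNA came from OCI-AML3, a line of human acute myeloid leukaemia cells. The cells received 1 μM Vorinostat (also called SAHA), an inhibitor of histone deacetylases, for 24 h (3 arrays), or its solvent DMSO alone for 24 h (3 arrays). Total RNA was hybridised to Affymetrix HG-U133 Plus 2.0 arrays, and the deposited values are log2 values per probe set. Replicates in a group are numbered 1, 2 and 3. Since no source says whether each was a culture of its own, the spread behind the p-values is that between arrays and may be technical. Nor does any source say that equal numbers mark a pair, so differences within a number rest on the labels.

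Survival proteins such as BCL-2, MCL-1 and BCL-XL hold the effectors BAX and BAK in check. BH3-only proteins bind the survival proteins or the effectors in response to stress, and once BAX and BAK are free they form pores through which cytochrome c leaves the mitochondrion and starts the caspase cascade. In acute myeloid leukaemia BCL-2 and MCL-1 are known as proteins on which blast survival depends. Much of the control of this family acts on the proteins rather than on the RNA, which is all that was measured here.

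Across the family no probe set passed the test, and BCL2L11, the gene of the BH3-only protein BIM, was the member with the most probe sets on the positive side. All 7 of its probe sets had a higher mean with Vorinostat than with DMSO, against 46.0% of all probe sets. The gene also had the most probe sets of any member, and the 7 are not independent of one another. With both number 1 arrays left out, 4 of the 7 were positive. Within each of the 3 replicate numbers 4 of the 7 were higher, of which 1555372_at and 208536_s_at were above 3 on no array. Of the 15 probe sets of the survival genes, 0 were higher within each number and 1 was lower. Among all probe sets 12.4% were higher and 14.7% lower within each number, and the family as a whole had 4 of 30 higher (13.3%), near that background. Besides BCL2L11, MCL1 and BID had probe sets whose mean over the 6 arrays exceeded 3, which was 5 in all. Of these 5, 200797_s_at of MCL1 and 227143_s_at and 211725_s_at of BID were lower with Vorinostat in replicate number 2 and higher in number 3. The others were lower in both numbers, as was 1558143_a_at, the BCL2L11 probe set with the highest mean (-0.31 and -0.32). The other BCL2L11 probe sets with a mean above 3 were higher in both. No probe set of the other genes was above 3 on more than 2 of the 6 arrays.

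Sequences upstream of the annotated starts differed widely within the family, and the pair printed here sets the gene with the most positive probe sets beside the member poorest in CpG. RefSeq windows (GRCh38.p14) were matched for 9 of the 10 members, that is all but MCL1, and the 250 bases before the start are considered. Capitals mark the GC box GGGCGG and the TATA box TATAAA, searched on both strands.
BCL2L11, chr2:111120664-111120913, plus strand: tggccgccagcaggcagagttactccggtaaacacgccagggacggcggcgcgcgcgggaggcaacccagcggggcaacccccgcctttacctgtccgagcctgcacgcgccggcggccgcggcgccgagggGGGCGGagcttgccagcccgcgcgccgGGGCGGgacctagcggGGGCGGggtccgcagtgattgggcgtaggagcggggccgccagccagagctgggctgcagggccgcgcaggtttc
BCL2A1, chr15:79971197-79971446, minus strand: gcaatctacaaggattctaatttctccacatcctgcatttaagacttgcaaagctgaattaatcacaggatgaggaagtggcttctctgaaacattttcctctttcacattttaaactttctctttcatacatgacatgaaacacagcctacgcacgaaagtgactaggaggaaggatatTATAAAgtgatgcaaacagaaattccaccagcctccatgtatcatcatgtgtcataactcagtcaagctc
The BCL2L11 window held 34 CpG dinucleotides and 3 GC boxes, and 93.2% of the 35116 windows of that length held fewer CpG. The BCL2A1 window, the poorest in CpG of the family, held 2 CpG and 1 TATA box, and 14.7% of windows held fewer. The median window held 11 CpG. A GC box was present in 42.6% of all windows and a TATA box in 10.7%. PMAIP1 had the most CpG among the members, 36, so a CpG-rich window was not particular to BCL2L11. These matches describe letters only, as no binding was measured on these arrays.

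Signal differed between the arrays, and this bears on every value below. The replicate 1 arrays held 8158 (Vorinostat) and 8645 (DMSO) probe sets above a log2 value of 3, a level chosen with the data known. The other arrays held 2769 and 3274 with Vorinostat and 3731 and 2761 with DMSO. Among the 4920 probe sets whose mean over the 6 arrays exceeded 3, the median difference, Vorinostat minus DMSO, was -0.13, -0.76 and 0.19 in numbers 1, 2 and 3. The median of 9 housekeeping genes was -0.04, -1.70 and -0.24. Of the 9 myeloid leukaemia markers measured, NPM1, CEBPA and LYZ were above 3 on all 6 arrays, while MPO, SPI1, CSF3R and ANPEP were above 3 on none. No marker of T and NK, B, erythroid, epithelial or fibroblast cells was above 3 on all arrays, and 13 of 16 were above 3 on none. Single high values did occur among them, such as 4.09 for the B cell gene CD79A on Vorinostat replicate 2. They also included 3.92 for the epithelial gene CDH1 on DMSO replicate 3. In RNA of a whole culture, fewer cells of a type and less RNA per cell cannot be told apart.

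Of the 30 family probe sets, 9, 5 and 4 were above 3 on Vorinostat arrays 1, 2 and 3, against 8, 6 and 5 on DMSO arrays 1, 2 and 3. Of the 30, 18 were above 3 on no array. The mean over the 6 arrays exceeded 3 for 8 probe sets, of which 3 read BCL2L11, 3 read BID and 2 read MCL1. Among these, 1553096_s_at of BCL2L11 was above 3 on Vorinostat arrays only. Between 36.4% and 40.9% of the probe sets on each array, counted over all levels, shared their exact value with another probe set of that array. Levels are compared between arrays for 1 probe set at a time and not between probe sets, which differ in how well they bind.

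**Figure D1:**
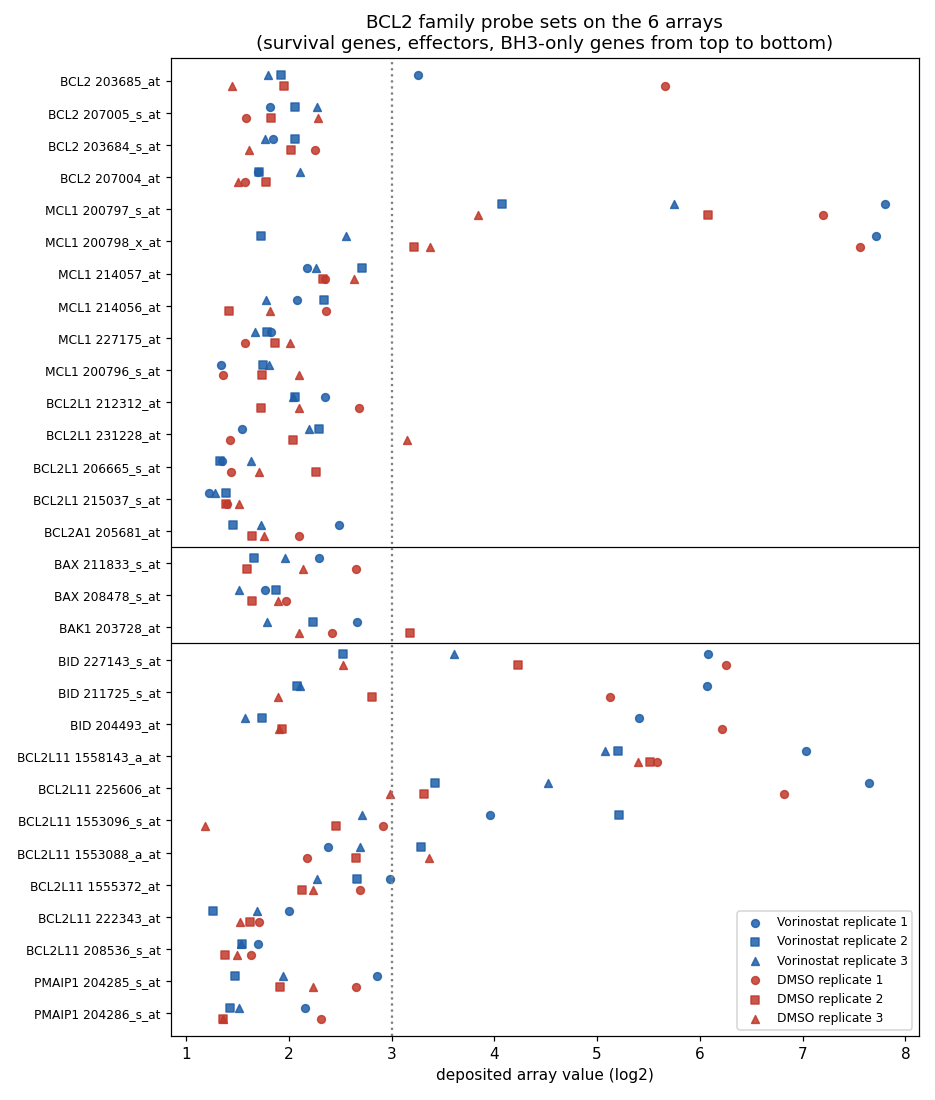
Deposited log2 values (horizontal axis) of the 30 family probe sets (rows, ordered by role and gene), with 1 point per array, blue for Vorinostat and red for DMSO, the marker showing the replicate number, and a dotted line at 3. Circles, the replicate 1 arrays, lie beyond the line in 9 rows for Vorinostat and 8 for DMSO, and 18 of 30 rows have no point beyond it.

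At over 2-fold with an unadjusted p under 0.05 from limma, the threshold of the study, 0 of 30 family probe sets were higher and 0 lower, against 0.0165% and 0.0275% of all probe sets. These calls come from the fit made here. The paper reports many more genes at this threshold and lists BCL2A1 among those increased. It names no model for its arrays, and the reason for the difference was not tested. At an adjusted p under 0.05 from limma 0 of 30 passed, as did 0% of all probe sets, and the lowest adjusted p of any was 1. At an unadjusted p under 0.05, 0 of 30 passed in limma, while over all probe sets 272 were higher and 273 lower. The groups did not overlap for 0 of 30 in either direction, against 2.39% higher and 2.87% lower among all probe sets. The family median difference was -0.03, with 14 of 30 positive (46.7%), against a median of -0.02 and 46.0% positive among all. Within each of the 3 replicate numbers 4 of 30 were higher (13.3%) and 2 of 30 lower (6.67%), against 12.4% and 14.7% of all probe sets. The family count of higher probe sets was therefore near the background, and all 4 of them read BCL2L11. With the replicate number as a block, 1 family probe set was higher and 0 lower at the threshold of the study, against 0.0952% and 0.32% of all.

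BCL2L11 encodes BIM, which binds all survival proteins of the family and can activate BAX and BAK directly. Its probe set 1553096_s_at had 3.96, 5.21 and 2.71 on Vorinostat arrays 1, 2 and 3, against 2.91, 2.46 and 1.19 on DMSO arrays 1, 2 and 3. Every Vorinostat array was above the DMSO array of its own number, but the groups overlapped, since Vorinostat replicate 3 was below DMSO replicate 1. The differences were 1.05, 2.75 and 1.52 within numbers 1, 2 and 3, and the limma log2 difference was 1.78 (standard error 0.768, 95% interval -0.15 to 3.71, unadjusted p = 0.0646, adjusted p = 1). This was the largest difference in the family, and the probe set that passed the threshold of the study with the block (unadjusted p = 0.00743, adjusted p = 0.887, limma). Without Vorinostat replicate 3 it also passed without a block, at 2.40 (unadjusted p = 0.0212, limma). Without Vorinostat replicate 2, its highest array, the difference was 1.15 (unadjusted p = 0.16, limma). Over all alternatives its unadjusted p from limma or the methods' test lay between 0.00743 and 0.177. The fit with the block is no separate evidence, as the probe set is singled out here for its higher value in each number. Its mean over the 6 arrays, 3.07, exceeded 3 through the Vorinostat arrays, as every DMSO array was under 3. The lower signal of bright probe sets in number 2 is therefore no yardstick for its difference of 2.75 there.

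The brighter probe set 225606_at had 7.65, 3.43 and 4.52 on Vorinostat arrays 1, 2 and 3, against 6.82, 3.32 and 2.99 on DMSO arrays 1, 2 and 3. Each Vorinostat array was again above its DMSO counterpart, by 0.83, 0.11 and 1.54, and the groups overlapped, with both replicate 1 arrays far above the rest. In limma it differed by 0.82 (standard error 1.52, adjusted p = 1). After each array was centred on its median and scaled to a common spread it was 1.105 (unadjusted p = 0.0436, limma), past the threshold of the study, while without Vorinostat replicate 1 it turned to -0.40 (unadjusted p = 0.778, limma). The remaining 2 probe sets that were higher in each number differed little, 1555372_at by 0.29, 0.54 and 0.04 and 208536_s_at by 0.07, 0.16 and 0.04 in numbers 1, 2 and 3. No array was above 3 for either of them, and sizes of change are measured poorly there.

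The BCL2L11 probe set with the highest mean, 1558143_a_at, did not follow this pattern. It had 7.04, 5.20 and 5.08 on Vorinostat arrays 1, 2 and 3, against 5.58, 5.52 and 5.40 on DMSO arrays 1, 2 and 3. Only Vorinostat replicate 1 stood above the DMSO arrays, and the other Vorinostat arrays lay below all of them. Its log2 difference was 0.27 (standard error 0.551, adjusted p = 1, limma), and -0.36 without Vorinostat replicate 1 (unadjusted p = 0.0356, limma), under 2-fold and in the other direction. The other probe sets, 1553088_a_at and 222343_at, had differences of 0.05 and 0.03 and were higher in 2 of the 3 numbers each. All 7 probe sets of the gene were read on the same 6 arrays and are not independent of one another. Of the 7, all were positive after quantile normalisation, 6 after the spread scaling, and 4 when both number 1 arrays were left out.

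**Figure D2:**
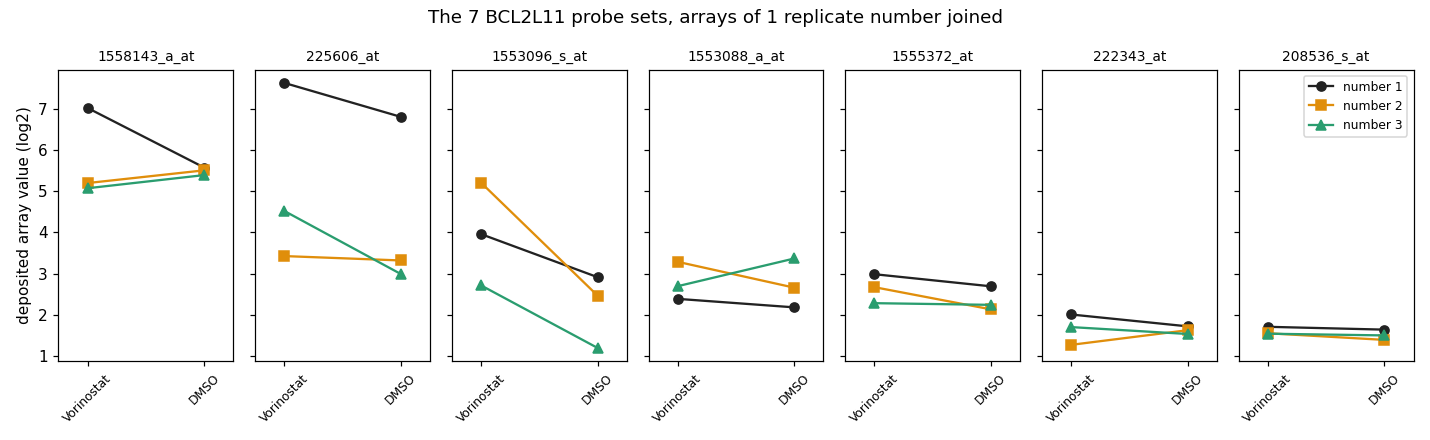
Deposited log2 values (vertical axis) of the 7 BCL2L11 probe sets (panels), Vorinostat left and DMSO right, with lines joining arrays of 1 replicate number. All 3 lines stand higher at Vorinostat for 225606_at, 1553096_s_at, 1555372_at and 208536_s_at, and only number 1 does for 1558143_a_at.

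BID, the BH3-only protein that is cut by caspase-8 and links death receptors to mitochondria, was read by 3 probe sets. Probe set 227143_s_at had 6.08, 2.53 and 3.60 on Vorinostat arrays 1, 2 and 3, against 6.26, 4.22 and 2.53 on DMSO arrays 1, 2 and 3. The number 1 arrays were alike, number 2 was lower with Vorinostat and number 3 was higher. Over the groups the log2 difference was -0.27 (standard error 1.30, adjusted p = 1, limma), with -0.18, -1.70 and 1.08 within the numbers. Probe set 204493_at had 5.41, 1.74 and 1.57 on Vorinostat arrays 1, 2 and 3, against 6.21, 1.94 and 1.91 on DMSO arrays 1, 2 and 3. It was bright on the number 1 arrays alone and was lower in each number, with differences of -0.80, -0.20 and -0.33 (limma with the block, unadjusted p = 0.0454, adjusted p = 0.887). The third probe set, 211725_s_at, differed by 0.94, -0.73 and 0.21, so the 3 probe sets of BID disagreed in direction in numbers 1 and 3.

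PMAIP1, which encodes NOXA, a BH3-only protein that chiefly binds MCL-1 and BCL2A1, stayed under 3 on all 6 arrays. Probe set 204285_s_at had 2.85, 1.47 and 1.94 on Vorinostat arrays 1, 2 and 3, against 2.65, 1.92 and 2.23 on DMSO arrays 1, 2 and 3. The groups overlapped, and the log2 difference was -0.18 (standard error 0.401, adjusted p = 1, limma). The other probe set, 204286_s_at, had a difference of 0.02.

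MCL1, a short-lived survival protein on which many myeloid cells depend, was read by 6 probe sets, of which 2 were bright. Probe set 200797_s_at had 7.80, 4.08 and 5.75 on Vorinostat arrays 1, 2 and 3, against 7.20, 6.08 and 3.84 on DMSO arrays 1, 2 and 3. It was above 3 on every array, and its direction differed by number, with Vorinostat higher in 1 and 3 and lower in 2. In limma the log2 difference was 0.17 (standard error 1.26, 95% interval -2.99 to 3.33, adjusted p = 1), which allows large changes in either direction. Within numbers 1, 2 and 3 it was 0.60, -2.003 and 1.91, and leaving out 1 array at a time moved it between -0.79 (without Vorinostat replicate 1) and 1.07 (without Vorinostat replicate 2). The lower value in number 2 went with the lower bright signal given above, -0.76 at the median. In number 3 the median of bright probe sets was 0.19, against 1.91 for this probe set. The part of the bright signal in the result was not tested directly. The difference was 0.45 after quantile normalisation (unadjusted p = 0.368, limma) and 0.36 after median and spread scaling (unadjusted p = 0.659, limma).

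The second bright MCL1 probe set, 200798_x_at, had 7.72, 1.72 and 2.56 on Vorinostat arrays 1, 2 and 3, against 7.55, 3.21 and 3.38 on DMSO arrays 1, 2 and 3. Here numbers 2 and 3 were both lower with Vorinostat, at differences of -1.49 and -0.82, so the 2 bright probe sets of MCL1 disagreed in number 3. Its log2 difference was -0.72 (standard error 2.02, adjusted p = 1, limma). With both number 1 arrays left out it was the 1 family probe set past the threshold of the study, lower with Vorinostat. The remaining 4 MCL1 probe sets were above 3 on no array, with differences between -0.10 and 0.20. Of 19774 other genes, S100A6, a calcium-binding protein, lay closest to 200797_s_at in its 6 centred log2 values, at a root mean square distance of 0.205. ARL6IP5 and TSNAX followed at 0.222 and 0.228, over all 6 arrays of both groups, so the distance also carries their differences in signal.

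**Figure D3:**
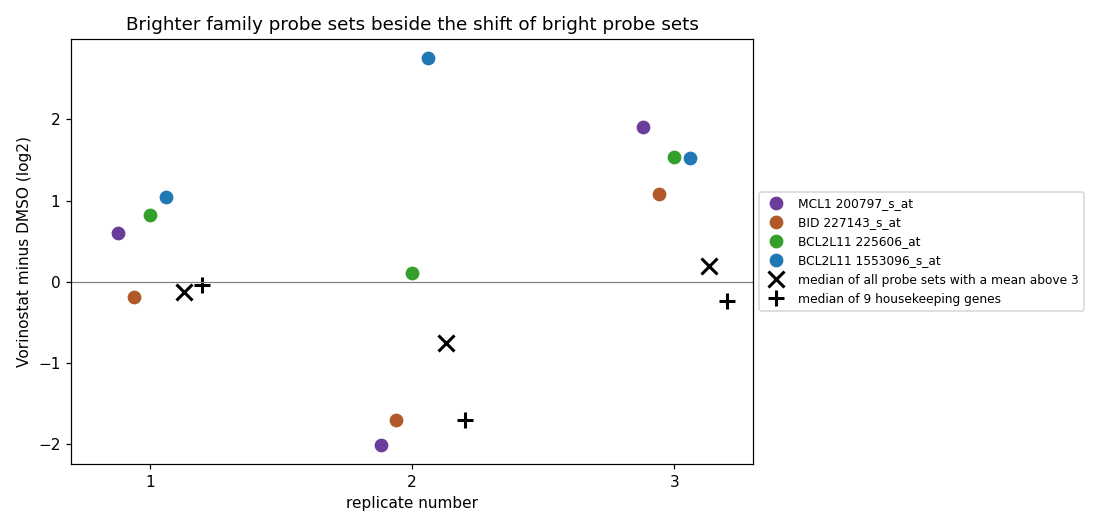
Vorinostat minus DMSO in log2 units (vertical axis) within replicate numbers 1, 2 and 3 (horizontal axis, points set side by side) for 4 of the 8 brighter family probe sets, with crosses for the median of the 4920 probe sets with a mean above 3 and plus signs for the median of 9 housekeeping genes. In number 2 MCL1 200797_s_at (-2.003) and BID 227143_s_at (-1.70) lie near the housekeeping median (-1.70) and below the median of the 4920 probe sets (-0.76). BCL2L11 1553096_s_at (2.75) lies above 0 there. In number 3 the same MCL1 (1.91) and BID (1.08) probe sets lie above both medians (-0.24 for housekeeping genes, 0.19 for the 4920 probe sets). MCL1 and BID are shown by their probe set with the highest mean. BCL2L11 is shown by those with a mean above 3 that were higher in each number, so their place above 0 follows from that choice. Its probe set with the highest mean, 1558143_a_at, is left out (1.45, -0.31 and -0.32 in numbers 1, 2 and 3). No DMSO array was above 3 for 1553096_s_at.

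BCL2, the founding survival gene and the target of venetoclax, had 1 probe set with a high value. Probe set 203685_at had 3.25, 1.92 and 1.79 on Vorinostat arrays 1, 2 and 3, against 5.66, 1.96 and 1.45 on DMSO arrays 1, 2 and 3. It was above 3 on the number 1 arrays only, where the difference was -2.41, and numbers 2 and 3 differed by -0.04 and 0.35. The log2 difference was -0.70 (standard error 1.21, adjusted p = 1, limma) and 0.62 without DMSO replicate 1. No array was above 3 for the other 3 BCL2 probe sets, whose differences lay between -0.07 and 0.22.

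BCL2L1, which encodes BCL-XL, had 4 probe sets, all with small negative differences between -0.37 and -0.02. Its probe set 212312_at had 2.36, 2.06 and 2.04 on Vorinostat arrays 1, 2 and 3, against 2.68, 1.73 and 2.09 on DMSO arrays 1, 2 and 3. The Vorinostat arrays lay inside the DMSO range, and the log2 difference of -0.02 turned to 0.07 after quantile normalisation. Probe set 206665_s_at was lower in each number, at -0.09, -0.94 and -0.08, at values from 1.33 to 2.26.

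BCL2A1, a survival gene induced by NF-κB in white blood cells, was read by 1 probe set, 205681_at. It had 2.49, 1.46 and 1.73 on Vorinostat arrays 1, 2 and 3, against 2.10, 1.64 and 1.75 on DMSO arrays 1, 2 and 3. Vorinostat replicate 1 was the highest array, and the other Vorinostat arrays were lower than their DMSO counterparts. The log2 difference was 0.06 (standard error 0.301, 95% interval -0.70 to 0.82, adjusted p = 1, limma) and -0.24 without Vorinostat replicate 1. The paper lists BCL2A1 among its genes increased by Vorinostat, a call that the fit made here did not reproduce.

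Neither effector gene was bright on these arrays. BAX was read by 211833_s_at at 2.29, 1.66 and 1.96 on Vorinostat arrays 1, 2 and 3, against 2.66, 1.60 and 2.14 on DMSO arrays 1, 2 and 3. The log2 difference was -0.16 (standard error 0.316, adjusted p = 1, limma), and the second BAX probe set, 208478_s_at, had -0.12. BAK1, at 203728_at, had 2.67, 2.23 and 1.79 on Vorinostat arrays 1, 2 and 3, against 2.42, 3.18 and 2.09 on DMSO arrays 1, 2 and 3. Its groups overlapped, its difference was -0.34 (standard error 0.360, adjusted p = 1, limma), and DMSO replicate 2 was its 1 array above 3. Without that array the difference was -0.03.

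Set side by side, the survival genes had 5 of 15 probe sets with a positive difference and a median of -0.055. The effectors had 0 of 3 with a median of -0.16. The BH3-only genes had 9 of 12 with a median of 0.07, against a median of -0.02 over all probe sets. The positive side of the BH3-only genes lay in BCL2L11, as BID and PMAIP1 had 2 of 5 positive with a median of -0.18. With 1 probe set per gene, that of the highest mean, 2 of 4 survival genes were positive with a median of 0.02. On that basis 1 of 5 effector and BH3-only genes was positive, with a median of -0.18. For the BH3-only genes alone 1 of 3 was positive, also with a median of -0.18. The sign for the BH3-only genes therefore depended on whether probe sets or genes were counted. Without both number 1 arrays 5 of 12 BH3-only probe sets were positive, with a median of -0.06. Medians of the survival probe sets were -0.02, 0.01 and -0.05 in numbers 1, 2 and 3, and those of the BH3-only probe sets 0.25, -0.06 and 0.10.

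**Figure D4:**
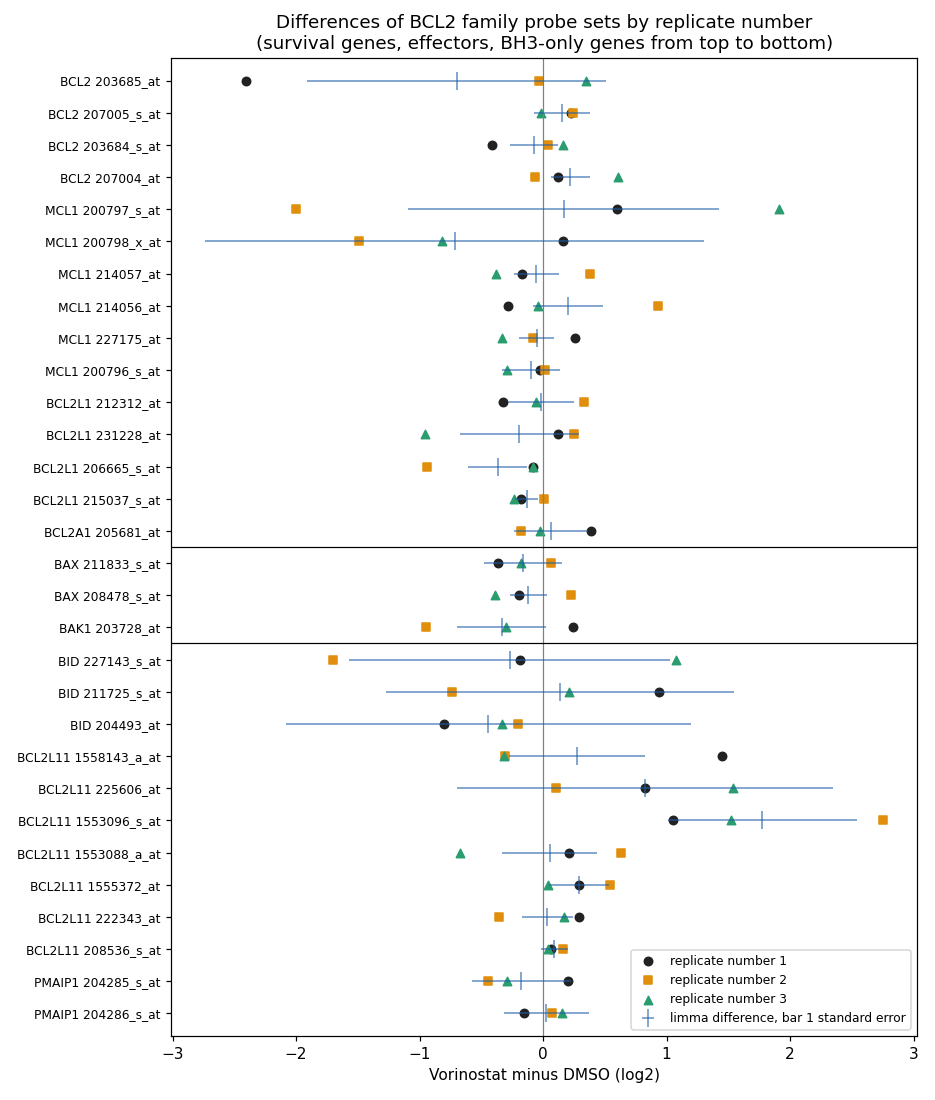
Vorinostat minus DMSO in log2 units (horizontal axis) for the 30 family probe sets (rows, in the order of role and gene), with markers for replicate numbers 1, 2 and 3, and a blue tick with a bar of 1 standard error for the limma difference of n = 3 arrays per group. For 24 of 30 rows the 3 markers do not fall on the same side of 0, and the 4 rows with all markers above 0 read BCL2L11.

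Standard errors differed with brightness, though their ranges overlapped. A small standard error at low values does not mean that a change is measured well there. For the 8 probe sets with a mean above 3 the standard errors from limma lay between 0.551 and 2.02, and for the other 22 between 0.0956 and 1.21. A level 2-fold higher with Vorinostat, which is 1 on the log2 scale, lay inside the 95% interval of every one of the 8 bright probe sets.

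Other genes of the family and of the steps that follow were also low or mixed. Of 11 further BCL2 family genes, 7 had a positive and 4 a negative log2 difference with a median of 0.10, against 9273 of 19775 positive and a median of -0.02 over all genes. None passed an adjusted or an unadjusted p under 0.05 in limma. The largest positive difference was that of BAD, a BH3-only gene controlled by phosphorylation, with 1.87, 2.06 and 2.58 on Vorinostat arrays 1, 2 and 3, against 1.90, 1.71 and 1.41 on DMSO arrays 1, 2 and 3 (log2 difference 0.50, unadjusted p = 0.0819, adjusted p = 1, limma). Next by p came the BH3-only genes HRK and BMF, with 0.21 and 0.18, both higher in each number at values under 3. The mitochondrial family protein BCL2L13 had -0.36 and was lower in each number, at -0.52, -0.45 and -0.11 (limma with the block, unadjusted p = 0.0472). The effector-like BOK had -0.09 and was also lower in each number, and the survival gene BCL2L10 had -0.08. Of the 11 genes, 3 were higher in each number (27.3%) and 2 lower (18.2%), against 2572 and 2717 of the 19775 genes (13% and 13.7%), and with so few genes nothing is read from these shares.

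Of 11 measured genes of the caspase pathway downstream of mitochondria, 4 were positive and 7 negative with a median of -0.08, and 0 passed an unadjusted p under 0.05 in limma. BIRC5, which encodes the inhibitor of apoptosis survivin and follows the cell cycle, had 5.95, 3.31 and 3.72 on Vorinostat arrays 1, 2 and 3, against 7.02, 5.57 and 3.43 on DMSO arrays 1, 2 and 3 (log2 difference -1.02, standard error 1.14). It was lower in numbers 1 and 2 and higher in number 3. ENDOG, a mitochondrial nuclease, had -0.63, with -0.61, 0.055 and -1.32 in numbers 1, 2 and 3. XIAP, an inhibitor of caspases, had -0.58, with -1.52, -0.30 and 0.08 in numbers 1, 2 and 3. HTRA2 and DIABLO, mitochondrial proteins that counter the inhibitors of apoptosis, had 0.81 and 0.73, each carried by 1 replicate number, 2.26 in number 2 for HTRA2 and 2.17 in number 3 for DIABLO. The executioner caspase gene CASP6 had 0.10. Of 5 genes of MCL1 protein turnover 3 were positive, with a median of 0.00, and the ubiquitin ligase HUWE1, bright on all arrays, differed by -0.04, -1.93 and -0.45 in numbers 1, 2 and 3.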

How the data were processed

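Per probe set and array, the authors deposited log2 values for 6 arrays, whose image files were imported into Partek Genomics Suite per the methods. MAS5 and RMA are named in the submitters' notes without role or version. After 62 control probe sets were removed, 54613 were fitted with limma 3.58.1 in R 4.3.3 (no block, filter or further normalisation), with Benjamini-Hochberg adjustment over all. Of these, 41091 name 1 gene, 1801 several and 11721 none here. The code was tested on simulated data with the same independent noise for every probe set and no difference in signal between arrays. That test does not show how the fit performs on arrays as unequal as these. An exact permutation test of 3 arrays against 3 cannot go below p = 0.1, so none is reported. Members and gene lists were chosen with earlier results of these data known. The text names all members, up to 3 genes per direction with the smallest p from the lists of other family and caspase genes, and the 3 genes closest to MCL1. HUWE1, the single markers and the BCL2L11 probe sets were singled out after their values were seen. Alternatives were quantile normalisation, median and spread scaling, the methods' t-test, a filter on dim probe sets, the replicate number as a block, the mean of a gene's probe sets, and leaving out arrays. Deviations from the group means correlated at 0.874, 0.599 and 0.672 for numbers 1, 2 and 3, each above 0.1, and the numbers were used to pair the arrays. This comes from the data alone. Crossing numbers 2 and 3 gave 0.695 and 0.594, also above 0.1, so the check does not show which of these arrays belong together. The fits with the block and the differences within numbers 2 and 3 therefore rest on the labels.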

Additional observations from a re-analysis of the deposited data

How the results depend on the processing

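The number of arrays, 3 per group, limits the precision. Family probe sets that passed the study's threshold, 0 of 30 as reported, numbered 1 with the replicate block (BCL2L11, 1553096_s_at), 1 with quantile normalisation and the block (the same probe set, 2.35), 1 after median and spread scaling (BCL2L11, 225606_at) and 1 lower with both number 1 arrays left out (MCL1, 200798_x_at). They numbered between 0 and 1 when 1 array was left out (1 without Vorinostat replicate 3, BCL2L11 1553096_s_at). Over all probe sets the count, 24, was 117 after quantile normalisation, 104 after scaling, 227 with the replicate block, 5 by the methods' t-test, 288 without both number 1 arrays, 282 with quantile normalisation and the block, and 21 (without Vorinostat replicate 2) to 240 (without Vorinostat replicate 1) when 1 array was left out. With both number 1 arrays left out, BCL2 turned to 0.155, MCL1 to -0.046, BCL2L1 to 0.137, BCL2A1 to -0.103 and BCL2L11 (1558143_a_at) to -0.315. BCL2L1 also turned to 0.072 after quantile normalisation, with and without the block, and to 0.075 after scaling. BCL2A1 turned to -0.020 after scaling, and MCL1 to -0.092 when its probe sets were averaged. The cause of these turns was not tested. Leaving out 1 array gave -1.486 to 0.620 for BCL2, -0.792 to 1.067 for MCL1, -0.238 to 0.240 for BCL2L1, -0.237 to 0.278 for BCL2A1, -0.428 to 0.102 for BAX, -1.271 to 0.693 for BID, -0.560 to 0.130 for PMAIP1, -0.357 to 0.621 for BCL2L11 and -0.399 to 2.046 for its 225606_at. BAK1 and 1553096_s_at kept their direction in all alternatives run. BCL2L11 probe sets higher in each number were 3 of 7 after quantile normalisation or scaling. Quantile normalisation with the block, and these BCL2L11 counts, were chosen after the data were seen. The filter on dim probe sets kept 26 of the 30 family probe sets. The block changed no other family call at that threshold.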
